A study of Homo sapiens with 4 samples.

Results

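The adhesion G protein-coupled receptor (GPCR) genes were taken as the protein-coding autosomal genes whose symbol starts with ADGR, together with CELSR1, CELSR2 and CELSR3. In the GENCODE annotation used here, 29 of 19229 protein-coding autosomal genes met this definition. ADGRF2 is annotated as a pseudogene and ADGRG2 and ADGRG4 lie on the X chromosome, so these 3 receptors were not counted. Each gene was examined over its annotated body and 5 kb on each side for the places where BRG1 was detected by CUT&RUN, which releases and sequences DNA near an antibody-bound chromatin protein.

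Adhesion GPCRs join a long extracellular region, built from adhesion domains, to a membrane-spanning G protein-coupled receptor. Most carry a GAIN domain in which the protein cuts itself, and the stretch next to the cut acts as a tethered agonist once the outer fragment is displaced. The family contains receptors of synapses (latrophilins and brain angiogenesis inhibitors), of leukocytes (the EGF-module receptors), of planar cell polarity (the CELSR proteins) and of myelinating Schwann cells (ADGRG6).

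SW-13 is an adrenocortical carcinoma cell line without BRG1 and BRM, either of which can power the chromatin-remodeling SWI/SNF complex. Stable lines grown from single clones carried a doxycycline-inducible, V5-tagged transgene for either wild-type BRG1 (iBRG1) or BRG1 lacking the helicase/SANT-associated domain (i∆HSA), a domain that binds other SWI/SNF subunits. Both groups received doxycycline for 24 h, both held 2 replicates of 300000 cells, and anti-V5 was the antibody throughout, so the comparison asks where BRG1 was found with and without that domain. Uninduced cells and the negative controls of the study were not used here, although the methods state that peaks of negative controls were removed after calling, and differences between clones cannot be told apart from differences between constructs.

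The deposited data gave 1 peak list per construct, with 24212 peaks for iBRG1 and 25371 for i∆HSA. No value existed per replicate, so the error between replicates is unknown and no difference was tested. Intervals below are 95% Wilson intervals of a share and cover counting error only. Every peak carried a score, which was compared only with other scores of its own list. The median score was 2 in iBRG1 and 4 in i∆HSA, and the top 1% of scores started at 31 and 80, respectively. The lists hold no expression values, so the identity of the cells could not be checked against marker genes, and a peak says nothing of whether a receptor gene was expressed.

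Sequences under 3 shared intronic peaks are shown first, because the 2 genes that held the highest-scoring peaks, ADGRG6 and ADGRL2, and the gene with the most peaks, ADGRB3, each had 1 intronic site found with both constructs. Each window is 200 bases centred on the bases covered by both peaks, on the plus strand of GRCh37 (hg19). Capitals mark the AP-1 letters TGANTCA, where N is any base. The ADGRG6 intron window was chr6:142734252-142734451, the ADGRL2 window chr1:82173013-82173212 and the ADGRB3 window chr6:69849177-69849376.
ADGRG6 intron: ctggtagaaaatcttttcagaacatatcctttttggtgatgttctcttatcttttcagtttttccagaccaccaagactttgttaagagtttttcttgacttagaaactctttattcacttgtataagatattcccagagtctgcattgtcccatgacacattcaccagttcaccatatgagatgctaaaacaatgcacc
ADGRL2 intron: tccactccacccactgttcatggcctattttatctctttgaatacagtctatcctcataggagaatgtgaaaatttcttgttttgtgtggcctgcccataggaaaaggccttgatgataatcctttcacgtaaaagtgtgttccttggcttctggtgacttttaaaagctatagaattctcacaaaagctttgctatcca
ADGRB3 intron: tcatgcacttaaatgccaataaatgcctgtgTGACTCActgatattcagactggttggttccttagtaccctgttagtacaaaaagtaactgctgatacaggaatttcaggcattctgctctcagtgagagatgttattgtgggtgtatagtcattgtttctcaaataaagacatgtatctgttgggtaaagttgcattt
The ADGRB3 window held 1 AP-1 match and the other 2 windows held none. In the iBRG1 list, the 100 bp on each side of the peak midpoint held these letters in 12.9% of the 14593 peaks at protein-coding autosomal genes. In the i∆HSA list they did so in 9.76% of 15035 such peaks. Among shared peaks at these genes the shares were 15.9% of 3252 in iBRG1 and 16.9% of 3260 in i∆HSA. These shares refer to each peak's own midpoint, whereas the printed windows are centred on the common bases.

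Of the 29 receptor genes, 19 had at least 1 iBRG1 peak (65.5%, 47.3 to 80.1%) and 18 had at least 1 i∆HSA peak (62.1%, 44.0 to 77.3%). Over all protein-coding autosomal genes these shares were 44.7% and 49.5%. The receptor genes were long, with a median of 58.4 kb and a range from 21.1 to 878.0 kb, against a median of 27.6 kb for all genes. Each receptor gene was therefore set beside the 200 genes nearest to it in length. Over these like-length genes, 60.7% had an iBRG1 peak and 64.3% an i∆HSA peak, and both values lay inside the intervals of the receptor genes. Most peaks had low scores. With scores of at least 5, the minimum named in the study's methods, 8 receptor genes had an iBRG1 peak and 8 an i∆HSA peak (both 27.6%, 14.7 to 45.7%). These shares stood against 27.0% and 38.5% of like-length genes and 18.6% and 28.4% of all genes.

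Peaks of both lists were present at 14 receptor genes (48.3%, 31.4 to 65.6%), compared with 30.4% of all genes and 45.7% of like-length genes. A peak shared by both lists, with at least 1 bp in common, lay at 7 receptor genes (24.1%, 12.2 to 42.1%), compared with 16.5% of all genes and 23.3% of like-length genes. The receptor genes held 55 iBRG1 peaks and 38 i∆HSA peaks. The mean counts of the like-length genes, summed over the 29 receptors, were 46.2 and 45.7. Without ADGRB3 the counts at the receptor genes were 37 and 35. The excess of iBRG1 over i∆HSA peaks in the family was therefore held mostly by that gene.

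**Figure D1:**
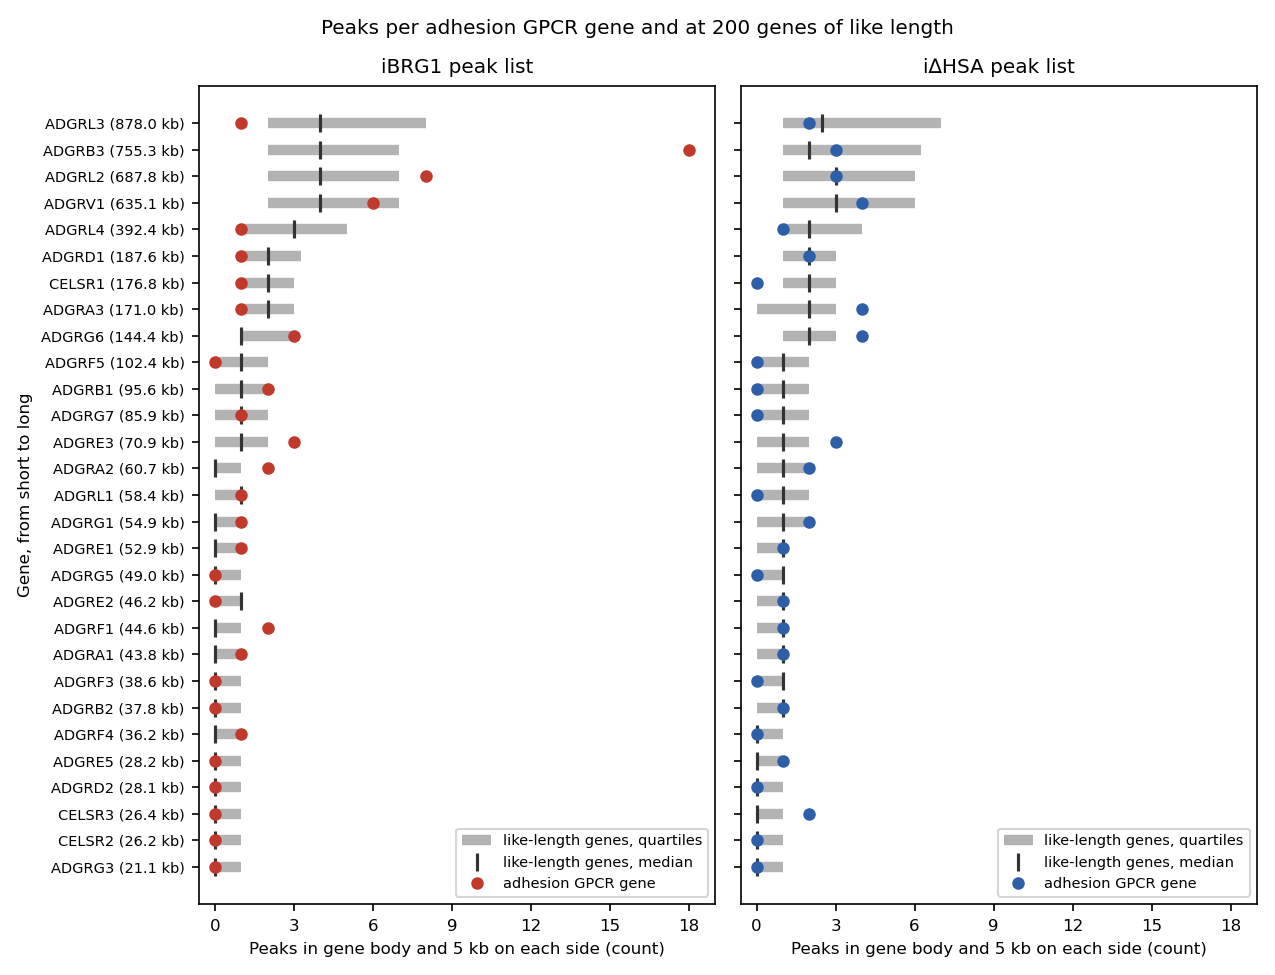
Number of iBRG1 peaks (left) and i∆HSA peaks (right) in the body and 5 kb flanks of each of the 29 genes (points), ordered by gene length, with the quartiles (grey bars) and median (ticks) of 200 genes of like length. ADGRB3 stood at 18 iBRG1 peaks, far beyond its grey bar, and at 3 i∆HSA peaks, inside it; ADGRL3, the longest gene, stood below its bar for iBRG1.

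Among single genes, 12 of 29 lay above the median of their like-length genes for iBRG1 and 9 of 29 for i∆HSA. Medians were low and many like-length genes tied with them, so the share above a median varied. For ADGRA1, 48% of the like-length genes exceeded their iBRG1 median of 0 and 20% exceeded their i∆HSA median of 1. The counts of 12 and 9 alone therefore show neither an excess nor a deficit, and cannot be compared between the lists. More iBRG1 than i∆HSA peaks were counted at 9 genes, more i∆HSA peaks at 9, and equal numbers above 0 at 5. These were 31.0%, 31.0% and 17.2% of the receptor genes, beside 30.6%, 33.7% and 14.9% of like-length genes and 22.7%, 28.1% and 12.9% of all genes. No peak of either list was found at 6 genes, ADGRD2, ADGRF3, ADGRF5, ADGRG3, ADGRG5 and CELSR2. This share of 20.7% stood beside 20.8% of like-length genes and 36.2% of all genes. For single genes, 12.5% of the like-length genes of ADGRF5 and 29.5 to 39% of those of the other 5 were without a peak in both lists.

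The receptors of synapses included the 3 longest genes. The brain angiogenesis inhibitors are ADGRB1, ADGRB2 and ADGRB3. C1q-like proteins are ligands of ADGRB3, and ADGRB1 also acts in engulfment. ADGRB3 (chr6:69345174-70100463, plus strand, 755.3 kb) held 18 iBRG1 peaks and 3 i∆HSA peaks, against like-length medians of 4 and 2. Of its 200 like-length genes, which were 528.9 to 971.5 kb long, 99% had fewer iBRG1 peaks, and 50.5% had fewer i∆HSA peaks. The difference of 15 peaks was reached by none of those 200 genes, whose largest difference was 14. Over all 19229 genes, ADGRB3 was the 1 gene with a difference this large, followed by CNTN5, DST and IMMP2L at 14 each. ADGRB3 was singled out here after these values were seen.

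All 18 iBRG1 peaks of ADGRB3 lay in introns and none within 1 kb of a start of the gene. They were spread from 6.89 to 738.7 kb behind the main start, with 7 of them in intron 3. The shared peak lay in intron 17, at chr6:69848125-69850378 with a score of 17 in iBRG1 and chr6:69848174-69850739 with a score of 10 in i∆HSA. The other 17 iBRG1 peaks lay between 3.20 and 245.6 kb from the nearest i∆HSA peak, with a median of 84.7 kb. Their scores were low. Apart from the shared peak, scores of 9 and 7 were the highest, and the remaining 15 were 4 or less. At a score of at least 5 the gene kept 3 iBRG1 peaks and 1 i∆HSA peak. A difference of 2 or more at that threshold was found at 254 genes, 12 of them among the like-length genes. The threshold is not alike in rank, since it kept 27.2% of the iBRG1 list and 41.1% of the i∆HSA list. Against the iBRG1 list median of 2, most of the gene's iBRG1 peaks scored 2 or more. Its i∆HSA peaks scored 10, 4 and 1, against a list median of 4. The adjoining 1 Mb held 4 iBRG1 and 10 i∆HSA peaks on the lower-coordinate side and 17 and 8 on the other. Chromosome 6 as a whole held 1794 and 1655 peaks.

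**Figure D2:**
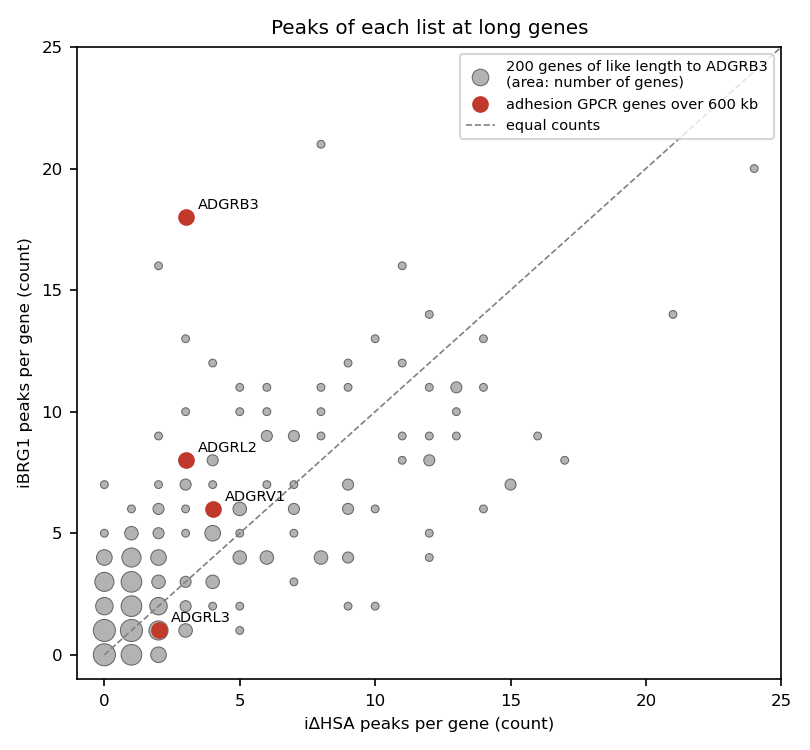
Number of iBRG1 peaks (vertical) against i∆HSA peaks (horizontal) per gene for the 4 receptor genes over 600 kb (red) and the 200 genes nearest to ADGRB3 in length (grey, area proportional to the number of genes at a point), with a dashed line of equal counts. ADGRB3, at 18 and 3, lay farther above the line than any like-length gene, whereas ADGRL3, at 1 and 2, lay near the origin.

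ADGRB1 had 2 iBRG1 peaks, 1 over a coding exon with a score of 5 and 1 in intron 17 with a score of 2, and no i∆HSA peak. ADGRB2 had 1 i∆HSA peak with a score of 3 at an internal start of its own, 6.92 kb behind the main start, and no iBRG1 peak.

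The latrophilins bind teneurins and FLRT proteins across the synapse, and ADGRL4 is an endothelial member of the subfamily. ADGRL2 (chr1:81771832-82459616, plus strand, 687.8 kb) had 8 iBRG1 peaks and 3 i∆HSA peaks, against like-length medians of 4 and 3. Its 8 iBRG1 scores were 21, 7, 4, 4, 3, 3, 2 and 1. Its 3 i∆HSA scores were 89, 29 and 3. The peaks with scores of 21 and 89 were the same site. They covered chr1:82172205-82174996 in iBRG1 and chr1:82172200-82174020 in i∆HSA, with 1816 bp in common, and ranked within the top 2.85% and 0.808% of their lists. This site lay at -93.0 kb from the main start, inside an intron of longer ADGRL2 transcripts and 6750 bp from the nearest start of the gene. The i∆HSA peak with a score of 29, at chr1:82211931-82213156, had no iBRG1 partner.

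ADGRL3, at 878.0 kb the longest receptor gene, had 1 iBRG1 peak, which scored 1, and 2 i∆HSA peaks, which scored 2 each. More iBRG1 peaks were present at 79% of its like-length genes, whose median was 4. Few genes are this long, and these 200 spanned lengths from 558.8 to 1195.7 kb. ADGRB3 and ADGRL3 thus lay above and below the quartiles of their like-length genes, with 18 iBRG1 peaks against 1. ADGRL1 had 1 iBRG1 peak in intron 1 with a score of 3. ADGRL4 had 1 peak in each list, with scores of 1 and 2, which did not overlap.

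ADGRV1, the very large receptor of hair cell stereocilia and photoreceptors, spans 635.1 kb. It had 6 iBRG1 peaks with scores of 0 to 4 and 4 i∆HSA peaks with scores of 2 to 4, against like-length medians of 4 and 3. The shared site in intron 1 scored 1 in iBRG1 and 3 in i∆HSA and had 1377 bp in common. No peak of this gene reached a score of 5, in either list.

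**Figure D3:**
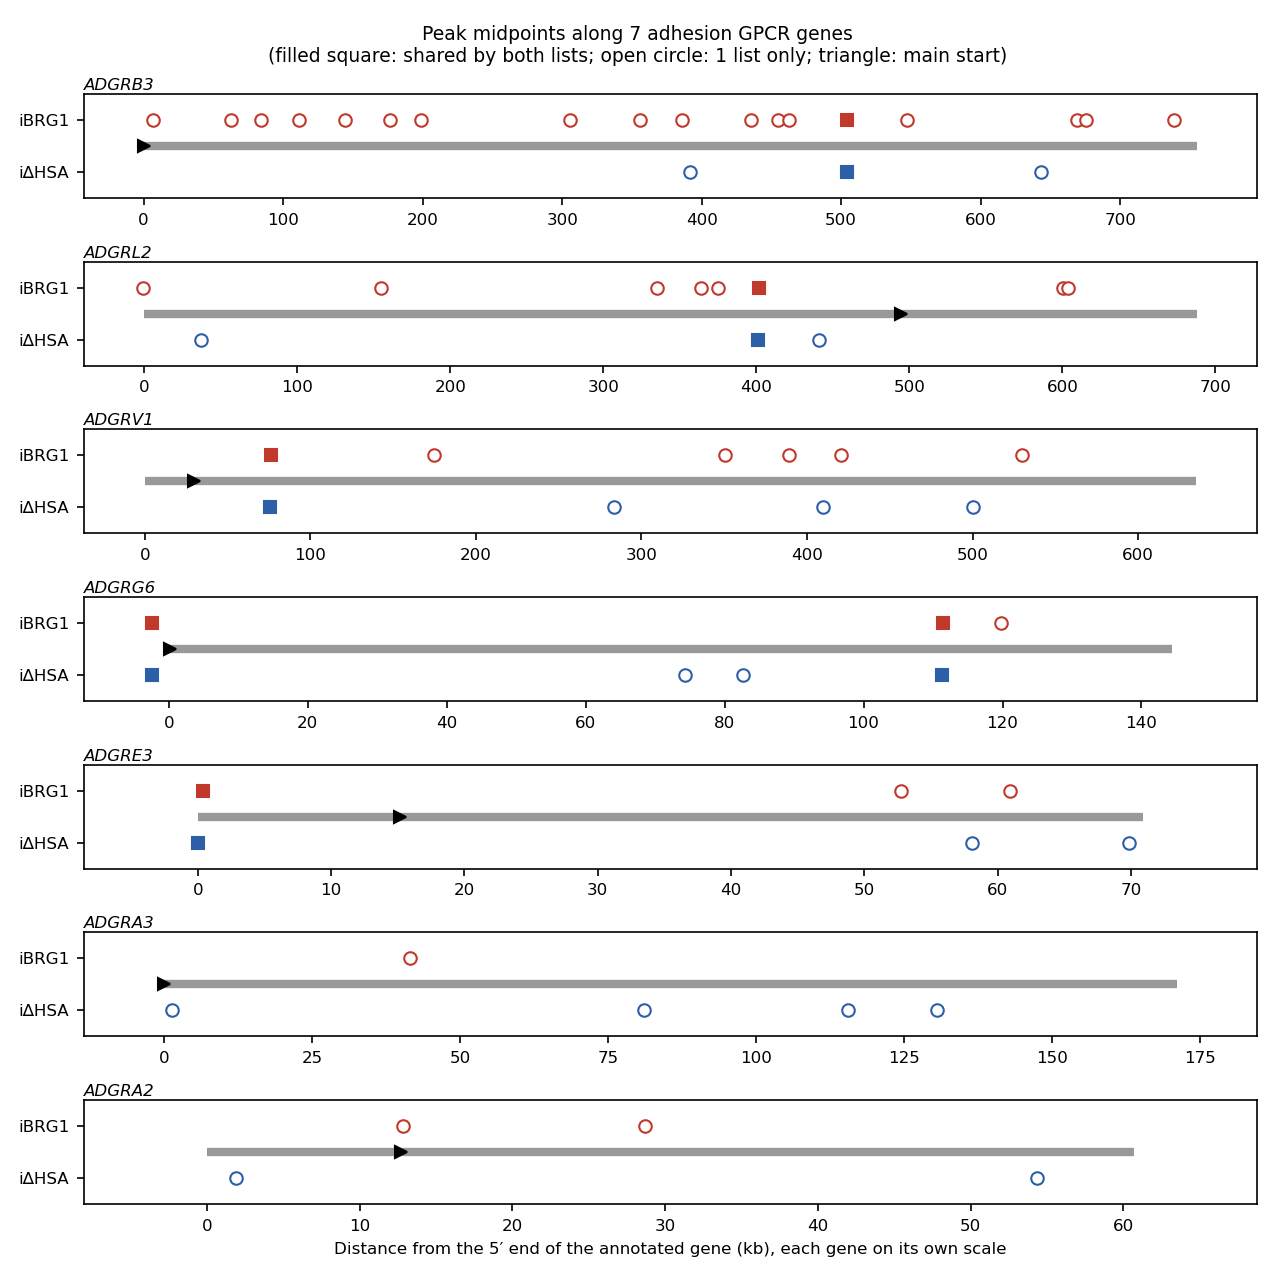
Midpoints of iBRG1 peaks (red, upper row) and i∆HSA peaks (blue, lower row) along the 7 receptor genes with the most peaks, by distance from the 5′ end of the annotated gene in kb; filled squares are peaks shared by both lists, open circles are peaks of 1 list, and triangles mark the main transcript start. ADGRB3 shows iBRG1 peaks along its whole length and 1 shared site, and ADGRG6 shows shared sites just upstream of its start and at about 111 kb.

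ADGRG6 (GPR126) is required in Schwann cells for myelination and binds collagen IV, laminin and the prion protein. The gene (chr6:142622991-142767403, plus strand, 144.4 kb) held the highest-scoring peaks of the family in both lists. Its 3 iBRG1 peaks scored 88, 25 and 18, and its 4 i∆HSA peaks scored 125, 65, 56 and 45. None of its iBRG1 peaks scored below 18 and none of its i∆HSA peaks below 45. Each of the other 13 genes with peaks in both lists held at least 1 peak below 5. Of the genes with peaks in only 1 list, ADGRE2 and ADGRE5 each had a single i∆HSA peak, scoring 55 and 12. ADGRG7 had a single iBRG1 peak, scoring 8. The like-length genes of ADGRG6 had median counts of 1 iBRG1 peak and 2 i∆HSA peaks.

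The strongest site lay in intron 18, 111.4 kb behind the main start. Its iBRG1 peak, chr6:142733678-142735315 with a score of 88, was 1 of 3 peaks in the list with a score of 88 or more. Its i∆HSA peak, chr6:142733501-142735025 with a score of 125, was 1 of 97 with a score of 125 or more. Both peaks had 1348 bp in common. The other shared site lay upstream, at chr6:142618924-142622102 with a score of 18 in iBRG1 and chr6:142618894-142622284 with a score of 45 in i∆HSA. These peaks had 3179 bp in common, so that the i∆HSA peak contained the whole iBRG1 peak, and they ended 889 and 707 bp before the nearest start of the gene.

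The remaining ADGRG6 peaks were found with 1 construct. An iBRG1 peak with a score of 25 lay in intron 22 (chr6:142742331-142743111). An i∆HSA peak with a score of 65 and a width of 4819 bp lay in intron 4 (chr6:142694810-142699628), and one with a score of 56 covered coding sequence around intron 6 (chr6:142704261-142707047). The peaks of 1 list thus lay on either side of the shared intronic site, those of i∆HSA before it and that of iBRG1 behind it. With 1 list per construct, a peak missing from a list may also have fallen below its threshold.

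All 7 ADGRG6 peaks were searched over their whole width for AP-1 and TEAD letters after their scores had been seen. Of the 3 peaks without a partner, the iBRG1 peak held no AP-1 match. The i∆HSA peak in intron 4 held 2 and the one around intron 6 held 1, counts reached by 49.7% and 64.9% of peaks of like width. The shared intronic peak held 3 AP-1 matches in each list, all within 56 bp, which lay outside the printed central window. Each matched TGANTCA with A or T as the middle base, and none read TGACTCA or TGAGTCA. At least 3 matches were found, among peaks of like width at protein-coding autosomal genes, in 9.81% of 1539 for iBRG1 and in 6.21% of 1497 for i∆HSA. The stretch with 12 bases on each side covers chr6:142734747-142734826 on the plus strand of GRCh37, with the matches in capitals.
ADGRG6 intron, AP-1 stretch: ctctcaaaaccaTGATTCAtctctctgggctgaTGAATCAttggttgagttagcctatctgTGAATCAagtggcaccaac
The upstream peak held 6 AP-1 matches and 5 matches to the TEAD letters GGAATG in each list. In peaks of like width the median was 1 AP-1 match, and 6 or more were present in 1.42% of 1124 iBRG1 and 0.951% of 946 i∆HSA peaks. For TEAD the median was 2, and 5 or more matches were present in 5.16% and 5.18%. The 6 matches lay between -3.98 and -1.37 kb from the main start. They are printed below in order of position, each with 12 bases on either side, and start at positions 142619147, 142619364, 142619564, 142620106, 142620354 and 142621760 of chromosome 6.
ADGRG6 upstream, AP-1 match 1: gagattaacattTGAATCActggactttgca
ADGRG6 upstream, AP-1 match 2: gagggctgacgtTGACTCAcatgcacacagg
ADGRG6 upstream, AP-1 match 3: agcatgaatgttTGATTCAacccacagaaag
ADGRG6 upstream, AP-1 match 4: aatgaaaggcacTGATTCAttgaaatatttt
ADGRG6 upstream, AP-1 match 5: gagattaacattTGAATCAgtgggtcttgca
ADGRG6 upstream, AP-1 match 6: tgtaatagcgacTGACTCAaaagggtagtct
Matches 1 and 5, which lay 1207 bp apart, had 27 of 31 bases in common. The next most similar pair had 16 of 31 bases in common. Most of the upstream matches also had A or T as the middle base, and the rest read TGACTCA. A match to these letters describes the sequence and was not tested as a binding site.

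The other members of subfamily G had few peaks. ADGRG1 (GPR56), which binds transglutaminase and, in the developing cortex, collagen III, had 1 iBRG1 peak in intron 1 with a score of 1. Its 2 i∆HSA peaks, with scores of 3 and 2, lay within 1 kb of alternative starts of the gene. ADGRG7 had 1 iBRG1 peak with a score of 8 in intron 11 and no i∆HSA peak.

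The leukocyte receptors ADGRE1, ADGRE2, ADGRE3 and ADGRE5 (CD97, which binds CD55) lie on chromosome 19. ADGRE3 had 3 peaks in each list, against like-length medians of 1 and 1, with scores of 2, 2 and 1 in iBRG1 and of 3, 3 and 2 in i∆HSA. Its shared site, with 2736 bp in common, covered the outermost start of ADGRE3 and also the start of the neighboring zinc finger gene ZNF333. The peak could therefore not be assigned to 1 of these genes. ADGRE2 had no iBRG1 peak and 1 i∆HSA peak in intron 16 with a score of 55, among the top 1.97% of its list. This peak, chr19:14859605-14861305, had 19.0% GC, the lowest of all i∆HSA peaks at the receptor genes, whose median was 37.3%. The part of base composition in this peak was not tested. ADGRE5 had 1 i∆HSA peak with a score of 12, 1345 bp from the nearest start of its protein-coding transcripts. ADGRE1 had 1 peak in each list, with scores of 1 and 3, which did not overlap.

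In subfamily A, ADGRA2 (GPR124) is a coreceptor for Wnt7 signaling in brain vessels, and ADGRA3 (GPR125) is a related orphan receptor. ADGRA3 had 1 iBRG1 peak and 4 i∆HSA peaks, against like-length medians of 2 and 2. The iBRG1 peak, chr4:22475216-22477123 with a score of 9, covered an internal start 41.5 kb behind the main start. The strongest i∆HSA peak, chr4:22515458-22517179 with a score of 21, lay 441 bp from the nearest start and within 1 kb of the main start, and the other 3 scored 5, 3 and 2. ADGRA2 had 2 peaks in each list. Its iBRG1 peaks both scored 1, and 1 of them covered the main start. The i∆HSA peaks scored 9 and 3, and the stronger lay 802 bp from an upstream start of the gene. ADGRA1 had 1 shared site in its 3′ flank, with scores of 11 in iBRG1 and 3 in i∆HSA and 469 bp in common.

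The CELSR proteins are the vertebrate flamingo cadherins of planar cell polarity. CELSR1 had 1 iBRG1 peak with a score of 1 in its 3′ UTR. CELSR3 had 2 i∆HSA peaks, against a like-length median of 0. The stronger, chr3:48700503-48701683 with a score of 9, lay 184 bp upstream of the main start, and the other covered a coding exon with a score of 1. The 3 genes had no peak in common between the lists.

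In the remaining subfamilies, ADGRD1 had 1 iBRG1 peak with a score of 4 in intron 2 and 2 i∆HSA peaks with scores of 3 and 2. ADGRF1 (GPR110), a receptor for synaptamide, had a shared site in its 3′ flank with scores of 5 and 4 and an iBRG1 peak with a score of 3 in intron 1. ADGRF4 had 1 iBRG1 peak with the lowest score given in that list, 0.

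An own promoter was counted where a peak came within 1 kb of a start of a protein-coding transcript of the gene. This was the case for 6 genes in iBRG1 (20.7%, 9.85 to 38.4%) and 8 in i∆HSA (27.6%, 14.7 to 45.7%). The shares over all genes were 14.9% and 17.3%, and over like-length genes 16.1% and 18.3%. ADGRA2, ADGRA3, ADGRE3 and ADGRG6 had such peaks in both lists (13.8%, 5.50 to 30.6%), compared with 5.91% of all genes and 5.97% of like-length genes. The lists met at the same site in ADGRE3 and ADGRG6, whereas in ADGRA2 and ADGRA3 the constructs were found at different starts of the gene. Peaks within 1 kb of the main start were present at 4 genes, in iBRG1 at ADGRA2 and in i∆HSA at ADGRA3, ADGRG6 and CELSR3 (13.8%, 5.50 to 30.6%), against 21.8% of all genes and 22.2% of like-length genes. At ADGRG6 the peaks of the same site ended 860 bp from the main start in i∆HSA and 1042 bp from it in iBRG1, so the limit of 1 kb alone separated the lists there.

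By place, 43 of 55 iBRG1 peaks lay in introns (78.2%, 65.6 to 87.1%) and 7 near a transcript start (12.7%, 6.30 to 24.0%). For all genes these shares were 51.6% and 31.8%, and for like-length genes 65.5% and 21.7%. Of the 43 intronic peaks, 18 belonged to ADGRB3, and without that gene 25 of 37 were intronic (67.6%, 51.5 to 80.4%). Of the 38 i∆HSA peaks, 19 lay in introns (50%, 34.8 to 65.2%) and 11 near a start (28.9%, 17.0 to 44.8%). For all genes the i∆HSA shares were 48.2% and 34.7%, and for like-length genes 63.5% and 23.6%. Coding exons were covered by 1 iBRG1 peak (1.82%, 0.322 to 9.61%) and 4 i∆HSA peaks (10.5%, 4.17 to 24.1%), against 3.68% and 3.12% at like-length genes. The 4 i∆HSA peaks lay in ADGRA3, ADGRE1, ADGRG6 and CELSR3. The 3′ UTRs held 2 and 1 peaks and the flanks 2 and 3, or 3.64% and 2.63% and 3.64% and 7.89%, against 4.09% and 4.28% and 3.44% and 4.28% at like-length genes.

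**Figure D4:**
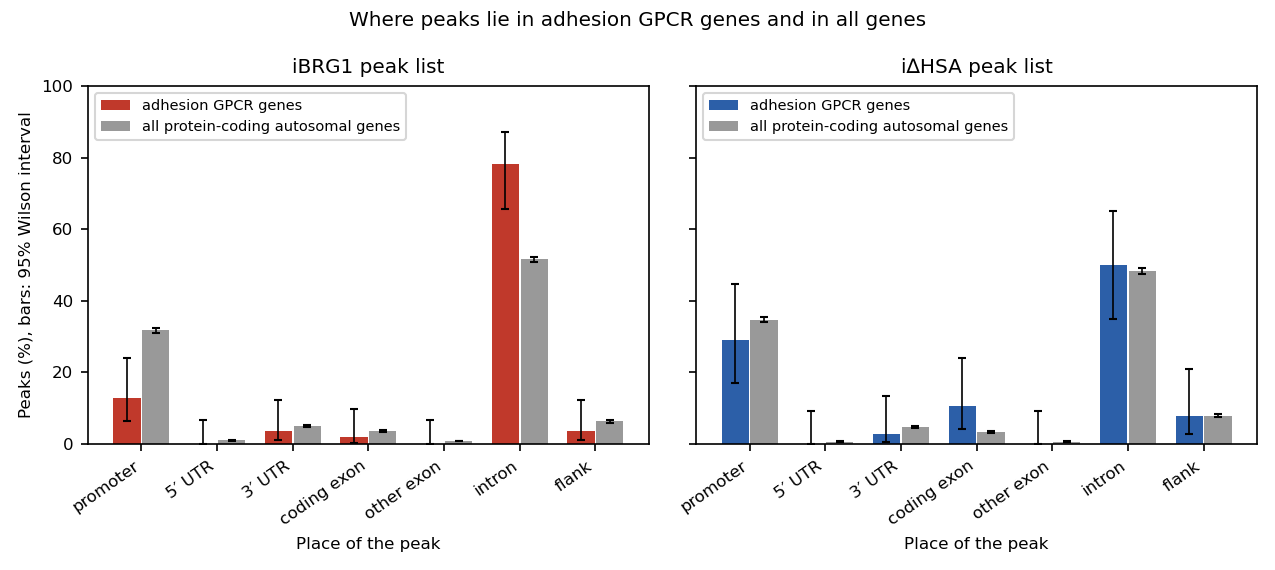
Share of iBRG1 peaks (left, n = 55) and i∆HSA peaks (right, n = 38) of the receptor genes by place (colored bars) beside the peaks of all protein-coding autosomal genes (grey bars), with 95% Wilson intervals as error bars. Introns held 78.2% of the iBRG1 peaks and 50% of the i∆HSA peaks.

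Of the 55 iBRG1 peaks, 8 were shared with the i∆HSA list (14.5%, 7.56 to 26.2%), and of the 38 i∆HSA peaks, 8 were shared with iBRG1 (21.1%, 11.1 to 36.3%). At like-length genes these shares were 20.5% and 20.9%, and at all genes 22.3% and 21.7%. Without ADGRB3, 7 of 37 iBRG1 peaks were shared. Shared receptor peaks had a median score of 14 in iBRG1 and 7 in i∆HSA, and peaks of 1 list had medians of 2 and 3. The same order was present over all genes, with 5 and 8 for shared peaks and 2 and 3 for the others. Scores of at least 5 were carried by 13 iBRG1 peaks (23.6%, 14.4 to 36.3%) and 13 i∆HSA peaks (34.2%, 21.2 to 50.1%), compared with 29.6% and 42.4% of peaks at all genes.

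**Figure D5:**
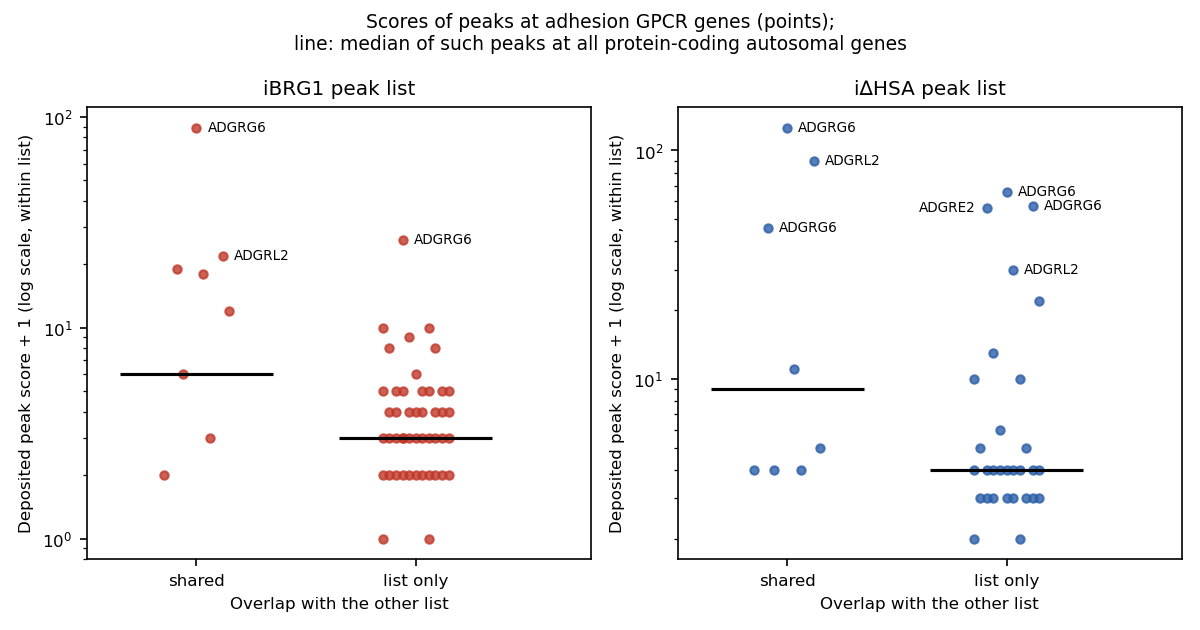
Deposited score plus 1, on a log scale, of every iBRG1 peak (left) and i∆HSA peak (right) at the receptor genes, split by overlap with the other list; black lines are the medians of such peaks at all protein-coding autosomal genes. The ADGRG6 peaks with scores of 88 and 125 and the ADGRL2 peak with a score of 89 stand at the top of the shared peaks, and ADGRG6 and ADGRE2 lead the i∆HSA peaks without an iBRG1 partner.

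Letters of 5 kinds were looked for on either strand around each peak midpoint, out to 100 bp, and each kind was counted without regard to overlap with another. AP-1 letters (TGANTCA) were present in 14.5% of the iBRG1 and 10.5% of the i∆HSA receptor peaks, close to 12.9% and 9.76% at all genes. TEAD letters (GGAATG) were present in 5.45% (1.87 to 14.9%) and 15.8% (7.44 to 30.4%), against 12.2% and 10.6%. For the E-box CAGCTG the shares were 10.9% and 10.5%, against 7.17% and 5.90%. For SP/KLF letters (GGGCGG) they were 5.45% and 10.5%, against 6.11% and 7.42%, and for RUNX letters (TGTGGT) 14.5% and 10.5%, against 12.4% and 12.5%. All of these shares at all genes lay inside the intervals of the receptor peaks.

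Ligands, polarity partners and signaling proteins of the receptors were counted in the same way over 38 genes. Of these, 21 had an iBRG1 peak, 21 an i∆HSA peak, 17 peaks of both lists and 9 a shared peak (55.3%, 55.3%, 44.7% and 23.7%). Their like-length genes, chosen in the same manner, gave 59.8%, 61.9%, 45.6% and 24.4%, and each value lay inside the interval of the related genes. Among 19 ligands and binding partners, 9 had iBRG1 and 11 had i∆HSA peaks, 47.4% and 57.9% against 56.5% and 57.8% of like-length genes. TENM3, a teneurin ligand of the latrophilins, had 9 peaks in iBRG1 and 6 in i∆HSA, and 4 of each were shared. TGM2, the transglutaminase bound by ADGRG1, had no iBRG1 peak and 2 i∆HSA peaks, the stronger with a score of 159. The 4 genes of C1q-like ligands of ADGRB3, which span 2.51 to 8.61 kb, held no iBRG1 peak and 1 i∆HSA peak, at C1QL1. Of their like-length genes, 25.2% had an iBRG1 peak, and with 4 genes the interval of the share of 0 reached 49.0%.

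Of 9 polarity partners of the CELSR proteins, 3 had iBRG1 peaks (33.3%, 12.1 to 64.6%) and 2 had i∆HSA peaks (22.2%, 6.32 to 54.7%). Of their like-length genes, 51.4% and 55.9% had such peaks. The value of 55.9% lay just above the i∆HSA interval of these 9 genes, and the difference was not tested. The Frizzled receptor gene FZD3 held 4 iBRG1 and 3 i∆HSA peaks, and its 3 i∆HSA peaks were all shared. Among 10 signaling genes below the receptors, 9 had iBRG1 peaks (90%, 59.6 to 98.2%) and 8 had i∆HSA peaks (80%, 49.0 to 94.3%). These genes were long, from 47.5 to 656.8 kb, and 73.8% and 75.1% of their like-length genes had such peaks. GNAQ, a G protein alpha subunit, had 10 and 6 peaks with 3 shared, and DOCK1, the Rac activator that acts with ELMO1 downstream of ADGRB1, had 6 and 5 with 3 shared.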

How the data were processed

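CUT&RUN with anti-V5 was performed on 4 samples of SW-13 cells, 2 per construct, grouped by their titles. Per the study's methods and the submitters' processing notes, the authors trimmed reads with Cutadapt, aligned them to hg19 with Bowtie2, handled duplicates with Picard and SAMtools and called peaks with MACS2 2.2. Peaks of negative controls were then removed per the methods, which could not be checked here. The deposited files held 1 peak list per construct, and the score of each peak is the authors' own whole number on a scale that is not stated. Whether replicates were pooled is not given in the sources used here. The methods name a minimum score of 5, but in the deposited lists 72.8% of iBRG1 and 58.9% of i∆HSA peaks scored lower. Read depth is unknown, and a shallower library can yield fewer peaks.

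Peaks were assigned to genes of GENCODE release 44 on GRCh37 by any overlap with the gene body and 5 kb on each side, using Python 3.11.15 and numpy 2.4.6. Each peak received 1 place, in the order promoter (within 1 kb of any transcript start), 5′ UTR, 3′ UTR, coding exon, other exon, intron and flank. The main start was that of the representative transcript, and intron numbers refer to it. Peaks were shared where they overlapped by 1 bp. Like-length genes were the 200 protein-coding autosomal genes nearest in length, and their pooled shares count a gene once for each receptor it neighbors. Assignment was tested on simulated data. The genes described in depth were those with the most peaks, counting ties, those with a score in the top 1% and those with promoter peaks in both lists. Members, gene lists and motifs were chosen with earlier results of these data known. All positions are 1-based, and sequences are those of the GRCh37 reference. A further group of related genes, beside the 3 groups counted in the Results, is not reported here.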

Additional observations from a re-analysis of the deposited data

How the results depend on the processing

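Under 12 alternative settings, 85 values were recomputed, and 72 of them stayed within 1.5 times the reported count or within the interval of the reported share. Requiring a score of at least 5 left 8 receptor genes with an iBRG1 peak, 8 with an i∆HSA peak, 4 with both and 3 with a shared peak, 13 peaks in each list, and 30.8% of the iBRG1 peaks shared. Keeping peaks at or above the median score of their list left 12, 10, 6 and 4 genes, respectively, and 16 i∆HSA peaks. Both settings remove peaks by construction. With promoters of 3 kb on each side, 25.5% of the iBRG1 peaks lay in one. Other window sizes, the overlap required for sharing, a GC minimum and other choices of like-length genes moved no value beyond these limits. No paired analysis was possible because the lists hold no value for a single replicate, and neither replicate of a construct could be left out. The lists give no depth, so a gene without a peak was not shown to lack BRG1.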
